A study of Mus musculus with 14 samples.

Results

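The 4 Cx43_null and the 4 Cx43_siRNA astrocyte samples each fall into a first pair, replicates 1 and 2, and a second pair, replicates 3 and 4, and the comparison described here sets the 4 samples numbered 1 and 2 against the 4 numbered 3 and 4. The samples were taken by their titles, 8 of the 14 in the series, with null or siRNA kept as a term and with 2 Cy3 and 2 Cy5 samples on each side. The genes described are those of the 9617 probes with 1 gene symbol that had a value in all 8 samples, of 18179 probes with 1 symbol, and they cover 8055 genes. Null cells lack connexin43 (Cx43), the gap junction protein encoded by Gja1. The siRNA samples were wild-type cells that received 20 ug of a Cx43 siRNA construct after they had grown confluent, for 36 h per the design text and 48 h per the protein protocol. Both groups came from newborn mouse brain, named as cortex in the titles and as whole brain in the protocol, with each littermate grown separately in medium with 5% serum for 1 week before passage. Both groups thus have Cx43 removed or lowered, and neither is a wild-type control. The design text speaks of independent cultures. The labels do not say what separates replicates 1 and 2 from 3 and 4, nor whether consecutive samples share a culture or an array, so each p-value rests on the spread among these samples alone, and that spread may be technical.

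Astrocytes are the glial cells that support neurons, take up glutamate and couple to each other through Cx43 channels. Cultures made from newborn brain are enriched in astrocytes by growth in serum, but they usually keep some microglia, the resident macrophages of the brain, and some fibroblasts and vascular mural cells of the meninges and vessels. These minor cells have strong marker genes, so their share in a dish, like the cell cycle state and inflammatory tone, is known to vary from culture to culture. In bulk RNA, fewer cells of a type and less RNA per cell cannot be told apart.

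The samples were more alike within a set than within a group. Each deposited value is a log2 level centred by the authors within each sample. Across the 14728 probes measured in all 8 samples, consecutive samples correlated at 0.923 to 0.99. Null and siRNA samples of the same set correlated at 0.807 to 0.911, whereas samples of the same group from different sets correlated at only 0.715 to 0.787. These are correlations across probes, which are not independent. Fewer probes had a value in replicates 1 and 2 (17849 to 19823 of 33600) than in replicates 3 and 4 (23877 to 26826). Each sample's median had been set to 0 over its own measured probes, and over the common probes the medians were 0.38 to 0.74 in replicates 1 and 2 and 1.29 to 1.59 in replicates 3 and 4.

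That unequal centring moved every difference between the sets. The median probe stood 0.75 higher in replicates 3 and 4 as deposited, so list counts are given also after recentring, in which each sample was set to a median of 0 over the common probes. Recentring lowers every difference between the sets by the same 0.89 (0.98 within null and 0.81 within siRNA), and a difference not called recentred is as deposited. As deposited, 5427 of 14728 probes (36.8%) passed an adjusted p of 0.05 in limma, 4842 higher (32.9%) and 585 lower (3.97%) in replicates 3 and 4. After recentring the 4516 called probes (30.7%) were split evenly, 2148 higher (14.6%) and 2368 lower (16.1%). When each consecutive pair was also averaged to 1 value, the pair-mean fit below, 1777 probes were called, 1036 higher (7.03%) and 741 lower (5.03%). Over the 8055 genes, each taken at its brightest probe as in the lists below, the shares called higher and lower were 29.9% and 3.91% as deposited, 11.2% and 16.8% after recentring, and 4.26% and 4.71% in the pair-mean fit. Values of all 4 samples of one set lay above all 4 of the other for 36.3% of the probes in the direction of replicates 3 and 4 and for 5.19% in the other direction. The difference between the sets was itself called as differing between siRNA and null for 3124 probes (21.2%) in the limma interaction test. That test treated all 8 samples as independent, so its p-values are too small if the consecutive pairs are technical. That count ran from 272 to 5929 when 1 replicate was left out, lowest without null replicate 2 and highest without null replicate 3.

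**Figure D1:**
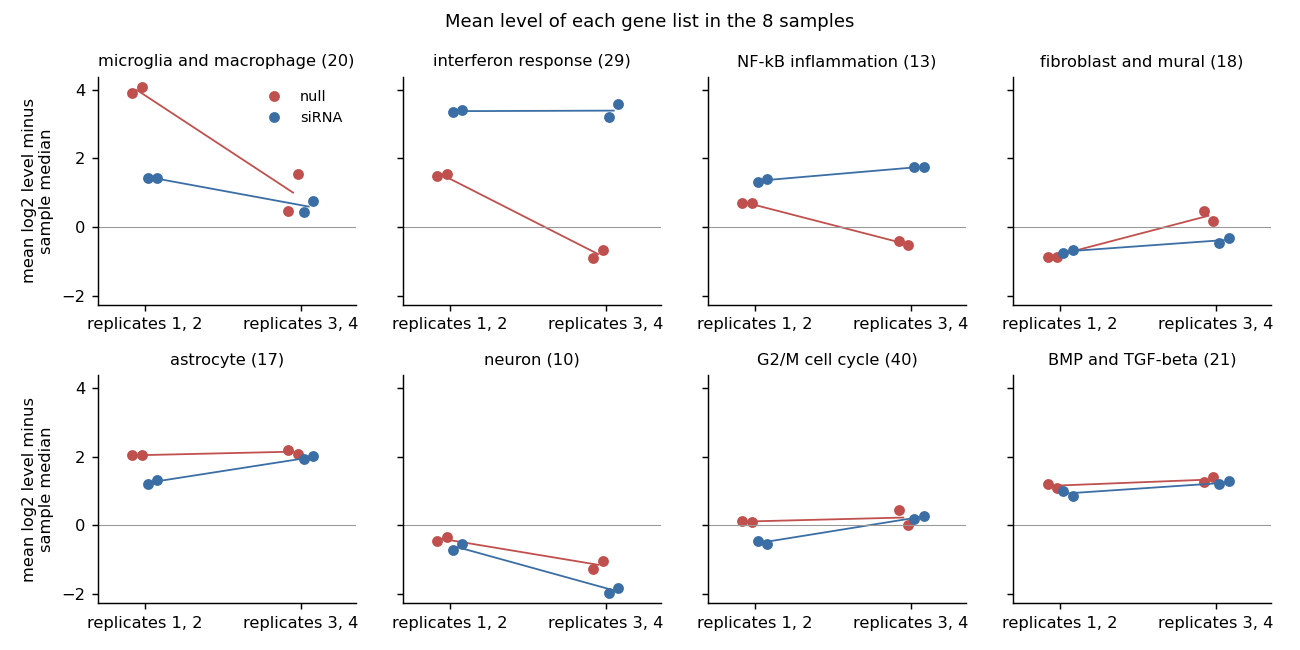
Mean log2 level of the measured genes of 8 gene lists in each of the 8 samples, after subtraction of each sample's median over the common probes; the number of genes is in brackets, each point is 1 sample (null in red, siRNA in blue), and lines join the means of the sets. The microglia and macrophage mean stood near 4 in null replicates 1 and 2 and between 0.432 and 1.55 in all of replicates 3 and 4, and the interferon mean fell below 0 only in null replicates 3 and 4.

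Microglia and macrophage genes were higher in replicates 1 and 2. Of 20 measured genes of the list, 7 were lower in replicates 3 and 4 as deposited and 0 were higher. After recentring 11 were lower, and in the pair-mean fit 6. The shares of all genes called lower were 3.91%, 16.8% and 4.71%. The recentred differences were negative for 19 of the 20 genes, with Mpeg1 the exception, and their median was -2.04, against -0.21 over all 8055 genes. Mean levels of the list, relative to each sample's median, were 3.92 and 4.07 in null replicates 1 and 2, 1.43 and 1.44 in siRNA replicates 1 and 2, 0.457 and 1.55 in null replicates 3 and 4, and 0.432 and 0.761 in siRNA replicates 3 and 4. The null samples of the first set were thus the highest by far. Of the 10 defining microglia markers, 6 were tested, and C1qb had a value in 7 samples, of 3.64 to 7.74.

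Laptm5, a lysosomal membrane protein of blood-derived cells and microglia, read 4.68 and 5.39 in null replicates 1 and 2 and 2.27 and 2.82 in the siRNA samples of the same set, against 2.04 and 2.67 in null and -0.47 and 0.49 in siRNA replicates 3 and 4. Within each group the sets did not overlap. The difference was -2.60 ± 0.34 (SE, 8 samples; adjusted p 0.0006 by limma), or -3.50 after recentring, with an adjusted p of 0.0071 in the pair-mean fit. Trem2, a lipid-sensing receptor of microglia, was 3.62, 3.75, 1.50 and 2.05 in null and siRNA replicates 1 and 2, against 1.17, 1.02, 0.07 and 0.26 in replicates 3 and 4, a difference of -2.10 ± 0.39. All 4 values of the first set lay above all 4 of the second. Spi1, the transcription factor PU.1 that sets myeloid cell fate, gave -2.10 ± 0.41, from 3.89 and 4.12 in null replicates 1 and 2 to 1.23 and 1.78 in null replicates 3 and 4, and from 0.81 and 1.44 to -0.42 and -0.71 in the siRNA samples. The complement subunit gene C1qa, the oxidase subunit gene Cyba and the Fc receptor-like gene Fcrls were also called in the pair-mean fit, with recentred differences of -2.05, -2.03 and -2.58.

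**Figure D2:**
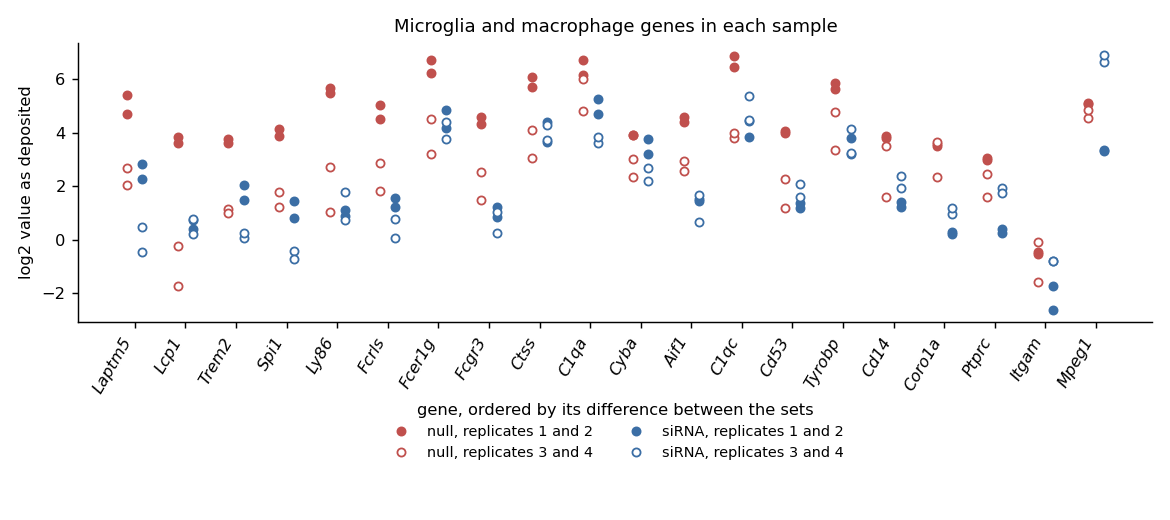
Deposited log2 values of the 20 measured microglia and macrophage genes, with filled points for replicates 1 and 2, open points for replicates 3 and 4, red for null and blue for siRNA. For Laptm5, Trem2 and Spi1 the filled points lie above the open points of the same colour; for Lcp1 and Ly86 the deposited values separate in that way in null but not in siRNA.

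The list did not move alike in both groups. As deposited, the median difference of its members was -2.31 in null and -0.04 in siRNA, beside 0.80 and 0.62 over all genes. For 11 of the 20 genes the difference was called as higher in siRNA than in null and for 0 as lower. Of all 8055 genes, 672 were called as higher in siRNA and 1045 as lower. Lcp1, an actin-bundling protein of leukocytes, read 3.85 and 3.62 in null replicates 1 and 2 and -1.73 and -0.24 in null replicates 3 and 4. In siRNA it read 0.40 and 0.73, then 0.22 and 0.77, so that the deposited values of the sets overlap there. After recentring Lcp1 differed by -5.70 in null and by -0.88 in siRNA, and over the list the medians were -3.29 and -0.85, with a negative difference for 20 genes in null and for 15 in siRNA. Ly86, which codes for MD-1, a partner of a Toll-like receptor relative, went from 5.67 and 5.49 to 1.04 and 2.73 in null and from 1.11 and 0.90 to 0.74 and 1.78 in siRNA. Lcp1 and Ly86 were picked out after their values were seen.

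The promoters of 3 of these genes are shown because Spi1, whose product binds purine-rich GAGGAA sites, was among the genes that differed together with them. Of the 20 genes, 16 had a promoter in the RefSeq table of GRCm38.p6, each 300 bases from 250 before the start of the gene to 50 after it; some genes have more than 1, 20 promoters in all. In all 5 strings were searched on both strands, and GAGGAA was chosen for display after matches had been seen, so its count supports nothing. The letters GAGGAA, or TTCCTC on the other strand, occurred in 11 of the 20 promoters (10 of the 16 genes), beside 28.3% of all 32851 promoters of that length. The longer string GAGGAAGT or its complement ACTTCCTC, which contains the first, occurred in 3 of the 20 and in 3.2% of all. The overlapping string AGGAAGTG or its complement CACTTCCT occurred in 4 of the 20, beside 4.07%, and GGAAGT or its complement ACTTCC in 8, beside 23.8%. TTTGAA or its complement TTCAAA occurred in 4, beside 17.9%. A match is a description of the letters and was not tested for binding. Of the 6 list genes called in the pair-mean fit, 4 had a promoter in the table. The 3 of these with a GAGGAA match are printed; the fourth, Cyba, had none. The 6-letter match is in capitals, read 5′ to 3′ on the strand of the gene: Laptm5 at chr4:130913066-130913365 on the plus strand, Trem2 at chr17:48346151-48346450 on the plus strand and Fcrls at chr3:87263475-87263774 on the minus strand.
Laptm5: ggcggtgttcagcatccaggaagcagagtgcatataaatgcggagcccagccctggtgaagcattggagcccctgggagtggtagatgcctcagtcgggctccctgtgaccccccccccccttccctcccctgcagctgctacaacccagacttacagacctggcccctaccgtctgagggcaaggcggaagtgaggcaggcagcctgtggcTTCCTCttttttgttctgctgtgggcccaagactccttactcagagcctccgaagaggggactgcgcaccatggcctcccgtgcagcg
Trem2: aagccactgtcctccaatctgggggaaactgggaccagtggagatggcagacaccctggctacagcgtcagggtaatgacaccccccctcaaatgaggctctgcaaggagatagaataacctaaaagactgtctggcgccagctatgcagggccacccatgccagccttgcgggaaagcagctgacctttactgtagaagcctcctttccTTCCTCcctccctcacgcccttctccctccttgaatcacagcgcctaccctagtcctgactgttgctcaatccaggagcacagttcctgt
Fcrls: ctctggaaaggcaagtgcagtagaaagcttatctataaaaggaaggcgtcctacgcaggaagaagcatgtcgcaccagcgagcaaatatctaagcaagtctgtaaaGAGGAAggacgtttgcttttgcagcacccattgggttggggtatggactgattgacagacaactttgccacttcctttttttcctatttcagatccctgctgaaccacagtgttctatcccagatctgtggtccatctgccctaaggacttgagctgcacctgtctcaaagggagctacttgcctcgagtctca

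A haemoglobin probe was lower in replicates 3 and 4. This probe of Hba-a1, the alpha chain of haemoglobin and the only red cell gene of its list measured in all 8 samples, read 3.81, 3.51, 3.62 and 3.75 in null and siRNA replicates 1 and 2, and 1.34, 1.32, 0.40 and 0.97 in replicates 3 and 4. The sets did not overlap, and the difference was -2.66 ± 0.39 (adjusted p 0.0010 by limma; 0.0070 in the pair-mean fit). Another Hba-a1 probe, low in every sample that had a value, did not show this, with -2.58 in siRNA replicate 2, its only value in the first set, and -0.26, -1.34, -0.70 and -1.69 in replicates 3 and 4. The called probe lies in the first 9 columns of the print grid, where differences between the sets were wider, as given below. Eif2s3y, a Y-linked gene, read 3.10 to 4.17 in all 8 samples and differed by -0.07 ± 0.36 (recentred -0.96, not called), with the sets overlapping. The X-linked gene Xist was not tested, since values were missing. Its probe read 1.04 and 1.51 in null replicates 1 and 2 and -1.68 in null replicate 4. It had no value in null replicate 3 or in any siRNA sample.

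Among fibroblast and mural cell genes, Ogn and Thy1 were called higher in replicates 3 and 4 as deposited, after recentring and in the pair-mean fit, and most of the other calls were not kept. Of 18 measured genes, 12 were higher as deposited and 0 lower, 4 were higher after recentring, and 2 in the pair-mean fit. The shares of all genes called higher were 29.9%, 11.2% and 4.26%. The recentred difference was positive for 15 of the 18, with a median of 0.62. Ogn, a small leucine-rich proteoglycan of connective tissue, read 2.02, 2.11, 0.37 and 0.60 in null and siRNA replicates 1 and 2 and 5.41, 5.34, 4.28 and 4.16 in replicates 3 and 4. All 4 samples of the second set lay above the first, with a difference of 3.52 ± 0.35 (adjusted p 0.0002), or 2.63 after recentring. Thy1, a surface glycoprotein of fibroblasts that neurons also carry, rose from a mean of -2.48 ± 0.64 to 1.02 ± 0.26 (SD, n = 4), and its sets did not overlap. Pdgfrb, the PDGF receptor of mural cells, was called as deposited (2.35 ± 0.48) and after recentring (1.46), but not in the pair-mean fit (adjusted p 0.115).

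The same list also moved more in null than in siRNA. Its median difference as deposited was 2.24 in null and 0.92 in siRNA, beside 0.80 and 0.62 over all genes. The difference between the groups was called for 11 of the 18 genes, 10 of them smaller in siRNA. Of all 8055 genes 1717 were called, 1045 of them smaller in siRNA. Lox, the collagen cross-linking enzyme lysyl oxidase, went from -2.79 and -2.78 to 2.17 and 0.90 in null and from 1.18 and 1.18 to 2.02 and 3.36 in siRNA. The first siRNA samples thus already stood where the second null samples did. Col1a1, the main collagen I chain, was not called (1.16 ± 0.93, adjusted p 0.356), since it read higher in null replicates 3 and 4 (0.46 and -0.78) than in replicates 1 and 2 (-3.80 and -3.13) and lower in siRNA (-3.26 and -2.85 after -2.63 and -1.50).

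Astrocyte genes as a list showed a small difference, with single members that differed widely. Of 17 measured genes 7 were higher in replicates 3 and 4 as deposited and 0 lower (beside 29.9% and 3.91% of all genes). After recentring 2 were higher and 1 lower (beside 11.2% and 16.8%). In the pair-mean fit 2 were higher, Gja1 and Id4 (beside 4.26%). Gja1, the target of both manipulations, stood at -1.17 and -1.06 in null replicates 1 and 2 and at 1.93 and 2.13 in the siRNA samples of that set, against 2.82 and 3.03 in null and 5.47 and 5.70 in siRNA replicates 3 and 4. Null lay below siRNA within each set. On the deposited scale the null samples of the second set lay above the siRNA samples of the first, whereas after recentring those samples overlapped. The difference between the sets was 3.79 ± 0.34 (adjusted p 0.0001; 0.014 in the pair-mean fit), or 2.90 after recentring, and it did not pass the interaction test (-0.49, adjusted p 0.341). Where the single Gja1 probe lies relative to the deletion is not stated in the labels, so it does not check the null label. An exact two-sided permutation of the set labels within groups gave Gja1 a p of 0.0556, the smallest that the 36 arrangements allow, so no single gene can reach 0.05 that way.

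Id4, an inhibitor of basic helix-loop-helix factors that is high in astrocytes, rose from 1.75, 1.68, 2.04 and 1.92 to 6.24, 5.42, 5.28 and 5.23. The difference was 3.69 ± 0.40, and the sets did not overlap. Other identity genes moved less: Aqp4, the water channel of astrocyte endfeet, gave 0.99 ± 0.42 and 0.44 ± 0.50 at its 2 tested probes. The recentred value of the second was -0.46. Another Aqp4 probe had no value in null replicates 3 and 4, and in siRNA it went from -2.74 and -2.50 to -0.39 and -0.72. Aldoc, a glycolytic enzyme of astrocytes, was called as deposited (2.01 ± 0.46, adjusted p 0.0084) and not after recentring (1.12). The glutamate transporter gene Slc1a3 had a value in all 4 samples of replicates 1 and 2, of 3.10 to 4.54, and in 0 of the 4 later ones. S100b went the other way, with a value in 0 of the 4 earlier samples and in all 4 later ones. The Slc1a2 probes had values in 0, 1 and 4 of the earlier samples and in 4, 4 and 3 of the later ones. Gfap, the intermediate filament of astrocytes, had a value in 0 of the 8 samples, so this classical marker could not be compared.

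Neuronal genes averaged below the sample median in all 8 samples. Of 10 measured ones 2 were lower in replicates 3 and 4 as deposited, 4 after recentring and 3 in the pair-mean fit. The shares of all genes called lower were 3.91%, 16.8% and 4.71%. Gad2, an enzyme of GABA synthesis, read 2.22, 2.02, -0.01 and 0.43 in null and siRNA replicates 1 and 2 and 0.31, 0.90, -1.34 and -1.18 in replicates 3 and 4, a difference of -1.49 ± 0.37. Within null and within siRNA the sets were apart. Tubb3, a neuronal tubulin, was not called at 0.49 ± 0.36, a value that turned to -0.40 after recentring. Among 10 ependymal and choroid plexus genes, 4 were higher and 1 was lower as deposited (beside 29.9% and 3.91% of all genes). After recentring 1 was higher and 2 were lower (beside 11.2% and 16.8%). Rsph1, a radial spoke protein of motile cilia, gave 3.62 ± 0.41, from -1.80, -1.56, -2.42 and -2.05 to 2.26, 2.85, 0.34 and 1.22. Foxj1, the master factor of motile cilia, gave 1.75 ± 0.38 and lost its call after recentring (0.86, adjusted p 0.139).

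Genes of BMP and TGF-beta signalling, growth factors that act through SMAD proteins and drive astrocyte maturation and matrix production, differed by member. Of 21 measured genes 9 were higher and 1 lower in replicates 3 and 4 as deposited (beside 29.9% and 3.91% of all genes). After recentring 8 were higher and 3 lower (beside 11.2% and 16.8%), and in the pair-mean fit 3 and 1 (beside 4.26% and 4.71%). The list's median recentred difference of -0.30 was near that of all genes, so the calls came from part of the list. Among ligands, Bmp6 rose from 1.24, 1.42, 0.07 and 0.65 to 4.22, 4.86, 4.27 and 4.88 (3.71 ± 0.39), and its other probe gave 3.06. Tgfb2 rose from -0.19, -0.34, -0.77 and -0.69 to 3.60, 3.28, 2.42 and 1.61 (3.23 ± 0.41). Bmp4 was called as deposited and after recentring (2.45 and 1.55), while Tgfb1 and Tgfb3 were not called (-0.48 and 0.60).

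The receptors and the intracellular genes of the pathway split in the same manner. The receptor genes Bmpr1a and Acvr1 gave 3.02 ± 0.52 and 2.52 ± 0.38, and Smad1, which carries the BMP signal to the nucleus, gave 2.73 ± 0.38. All 3 were also called after recentring (2.13, 1.63 and 1.83) and missed the threshold in the pair-mean fit at adjusted p-values of 0.061, 0.072 and 0.061. The ID genes, early targets of BMP signalling, went apart. Id4 was higher, while Id3 fell by 1.44 (± 0.47), from 5.23, 5.15, 5.42 and 5.35 to 4.10, 4.90, 2.93 and 3.46, and it was called in the pair-mean fit. Id1 and Id2 were not called as deposited (0.37 and -0.59).

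Mitotic genes were called higher in replicates 3 and 4 mostly as deposited. Of 40 measured G2/M genes 19 were higher and 0 lower (beside 29.9% and 3.91% of all genes). After recentring 8 were higher and 2 lower (beside 11.2% and 16.8%), and in the pair-mean fit 1 and 0 (beside 4.26% and 4.71%). That 1 was Kif20a, a kinesin of the cleavage furrow, which went from -2.02, -1.81, -2.54 and -1.90 to 2.38, 2.08, 1.09 and 1.64 (3.86 ± 0.40). Ccnb2, a mitotic cyclin, and Ect2, which starts cytokinesis, gave 2.99 ± 0.43 and 2.98 ± 0.69 and narrowly missed in the pair-mean fit (adjusted p 0.059 and 0.057). Mki67, a marker of cycling cells, was not called (0.51 ± 0.41, recentred -0.38), and Top2a was called only as deposited (1.49 ± 0.47). Of 29 genes of DNA replication 10 were higher and 0 lower as deposited (34.5% higher, beside 29.9% of all genes). After recentring 4 were higher and 2 lower (13.8% and 6.9%, beside 11.2% and 16.8%), and 0 were called in the pair-mean fit.

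**Figure D3:**
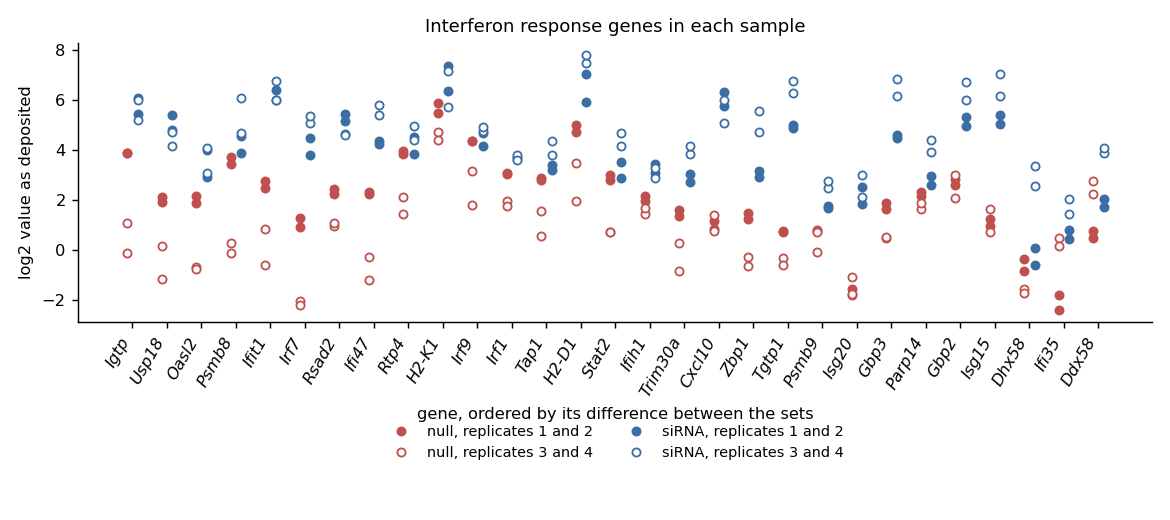
Deposited log2 values of the 29 measured interferon response genes, with filled points for replicates 1 and 2, open points for replicates 3 and 4, red for null and blue for siRNA. For Irf7, Psmb8 and Igtp the open red points lie below the filled red ones, while the blue points of both sets lie close together or higher.

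Interferon response genes, which cells switch on after sensing viral or double-stranded RNA, changed between the sets in null and not in the same way in siRNA. Relative to each sample's median, their mean level was 1.50 and 1.55 in null replicates 1 and 2 and -0.90 and -0.68 in null replicates 3 and 4. In siRNA it was 3.35 and 3.41, then 3.20 and 3.59. SiRNA samples thus stood further above null samples in the second set than in the first. Of 29 measured genes 19 had a negative difference in null and a positive one in siRNA as deposited, as did 904 of all 8055 genes; after recentring it was 14 of the 29 and 1161 of all genes. The interaction test called 18 of the 29, all 18 higher in siRNA, beside 672 of all 8055 genes called higher in siRNA and 1045 called lower. In the fit of the sets over both groups 2 of the 29 were called higher as deposited (Ddx58 and Ifi35) and 0 lower. After recentring 0 were higher and 8 lower, beside 11.2% and 16.8% of all genes. In the pair-mean fit 1 was lower (Usp18, recentred -2.49), beside 4.71%.

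The single genes, chosen after their values were seen, show how far the groups parted. Irf7, the master regulator of the interferon response, went from 0.91 and 1.26 to -2.05 and -2.21 in null and from 3.79 and 4.45 to 5.08 and 5.34 in siRNA, an interaction of 4.30 (adjusted p 0.0015 by limma). Psmb8, a subunit of the immunoproteasome, went from 3.44 and 3.73 to -0.14 and 0.25 in null and from 3.86 and 4.55 to 4.67 and 6.09 in siRNA. Null and siRNA thus read close together at Psmb8 in the first set and far apart in the second. Igtp, an interferon-induced GTPase, went from 3.88 and 3.88 to -0.13 and 1.06 in null and from 5.44 and 6.08 to 5.18 and 5.97 in siRNA. Microglia genes were also highest in null replicates 1 and 2, and their part in the interferon pattern was not tested.

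Inflammatory genes went in both directions. Ccl5, a chemokine, stood at 4.69 and 4.90 in null replicates 1 and 2 and at 7.98 and 8.76 in the siRNA samples of that set, against -0.45 and 0.29 and then 4.89 and 6.02 in replicates 3 and 4. Both groups fell, by 3.89 (± 0.50; adjusted p 0.0005) over the 2 groups, and by more in null (interaction 1.96, adjusted p 0.019). Nfkbia, the inhibitor of NF-kB, fell by 1.70 (± 0.41), while Csf1, the growth factor of microglia and macrophages, rose by 3.34 ± 0.34, from -0.41, -0.13, 0.96 and 1.47 to 2.84, 3.21, 4.31 and 4.88. Csf1 thus ran opposite to the microglia genes. Of the 13 measured NF-kB genes 5 were higher and 2 lower as deposited, 1 and 3 after recentring and 1 and 2 in the pair-mean fit. The shares of all genes were 29.9% and 3.91%, 11.2% and 16.8%, and 4.26% and 4.71%. Saa3, an acute phase protein, moved in opposite directions, from 4.08 and 4.46 to -1.20 and 0.30 in null and from 0.92 and 1.81 to 3.69 and 4.29 in siRNA (interaction 7.34).

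In the metabolic and stress lists single members differed widely. In oxidative phosphorylation 10 of 51 genes were higher and 3 lower as deposited (19.6% and 5.88%, beside 29.9% and 3.91% of all genes). After recentring 6 were higher and 12 lower (11.8% and 23.5%, beside 11.2% and 16.8%). In the pair-mean fit it was 2 and 4 (3.92% and 7.84%, beside 4.26% and 4.71%). Cycs, cytochrome c, read 0.17, 0.47, 1.24 and 1.61 in replicates 1 and 2 and 3.99, 3.67, 5.14 and 4.88 in replicates 3 and 4 (3.55 ± 0.38), and its other probe gave 3.98. The succinate dehydrogenase subunit gene Sdhc fell by 1.85, and the complex I genes Ndufa2 and Ndufa5 fell by 1.74 and 1.33. Among 25 cholesterol and fatty acid synthesis genes 11 were higher and 0 lower as deposited (44.0%, beside 29.9% of all genes). After recentring 5 were higher and 1 lower (20.0%, beside 11.2%), and in the pair-mean fit 2 and 0 (8.0%, beside 4.26%). Those 2 were Insig1, a sterol sensor partner (3.27 ± 0.64), and the fatty acid elongase gene Elovl6 (3.38 ± 0.54). Of 52 ribosomal protein genes 11 were higher and 0 lower as deposited (21.2%, beside 29.9% of all genes). After recentring 3 were higher and 7 lower (5.77% and 13.5%, beside 11.2% and 16.8%), and 0 were called in the pair-mean fit.

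Antioxidant genes went both ways. Sod1, the cytosolic superoxide dismutase, read 6.18, 6.85, 5.97 and 6.25 in replicates 1 and 2 and 4.55, 4.23, 2.42 and 3.28 in replicates 3 and 4, a fall of -2.69 ± 0.46. The sets did not overlap. Me1, malic enzyme, which makes NADPH, rose by 3.54 ± 0.40. Over the 21 genes of the Nrf2 list 5 were higher and 1 lower as deposited (beside 29.9% and 3.91% of all genes). After recentring 2 were higher and 7 lower (beside 11.2% and 16.8%). Hspb1, a small heat shock protein, gave -2.37 ± 0.49, and its list of 28 heat shock and unfolded protein response genes had 7 higher and 2 lower as deposited, and 3 higher and 6 lower after recentring, beside the same shares.

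**Figure D4:**
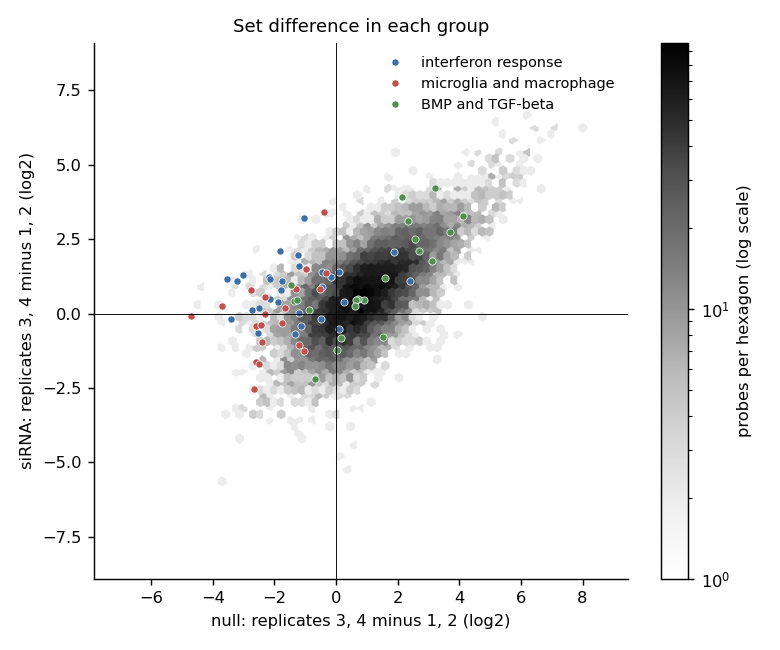
Difference between replicates 3 and 4 and replicates 1 and 2 (log2, as deposited) in null on the horizontal axis and in siRNA on the vertical axis, for 14728 probes as grey hexagons on a log count scale, with 3 gene lists as coloured points. The cloud runs along the diagonal (r = 0.637 across probes), and most interferon genes lie to its upper left, below 0 in null and above 0 in siRNA on the deposited scale.

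Across all probes the set difference in null and that in siRNA ran together, with a correlation of 0.637 over 14728 probes, and after recentring 71.8% had the same sign. Both were measured on different samples, but probes share their spot and sequence in both. The largest called differences were wide. Ppard, a lipid-sensing nuclear receptor, read -2.88, -2.46, -2.05 and -1.87 in null and siRNA replicates 1 and 2 and 5.01, 5.45, 3.80 and 4.87 in replicates 3 and 4, a difference of 7.10 ± 0.46. Aqp2, a water channel of the kidney collecting duct, gave 6.46 ± 0.51, and Comp, a cartilage matrix protein, 5.20 ± 0.38. The other 9 of the 12 largest were Krt84, Cetn4, Zfp758, Cp, Srp54a, Zfp932, Stmn1, Cdc42ep4 and Matr3. In the other direction stood Gapdh (-4.71 at 1 probe), Tfe3, Ctrb1, Bco1, Clstn2, Ssr3, Phyhd1, Oxa1l, Ccl5, Cntn2, Snrpn and H3c8 (-3.72 at 1 probe). Other probes of Gapdh, Tfe3, Snrpn and H3c8 showed no fall of that size, as given below. Kidney, cartilage, hair keratin and pancreatic genes were thus among genes with the widest differences.

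Different probes of 1 gene often disagreed on the difference between the sets. Over 910 genes with 2 tested probes, the recentred differences of the probes correlated at 0.18, less than the difference between siRNA and null (0.384) and the level (0.437) at the same probes. Of the 179 such genes with at least 1 probe called in the pair-mean fit, 13 had both called, 9 of them in the same direction. Gapdh, a glycolytic enzyme with 18 tested probes, had 17 between -1.34 and 0.54 after recentring and 1 at -5.60. Cp, ceruloplasmin, gave 5.61 at 1 probe and 0.89 at the other, Tfe3 gave -4.46 and 2.29, and Stmn1 gave 5.16 and 1.57. Bmp6 (3.71 and 3.06), Cycs (3.55 and 3.98) and Cetn4 (5.94 and 3.22) had probes that went the same way.

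**Figure D5:**
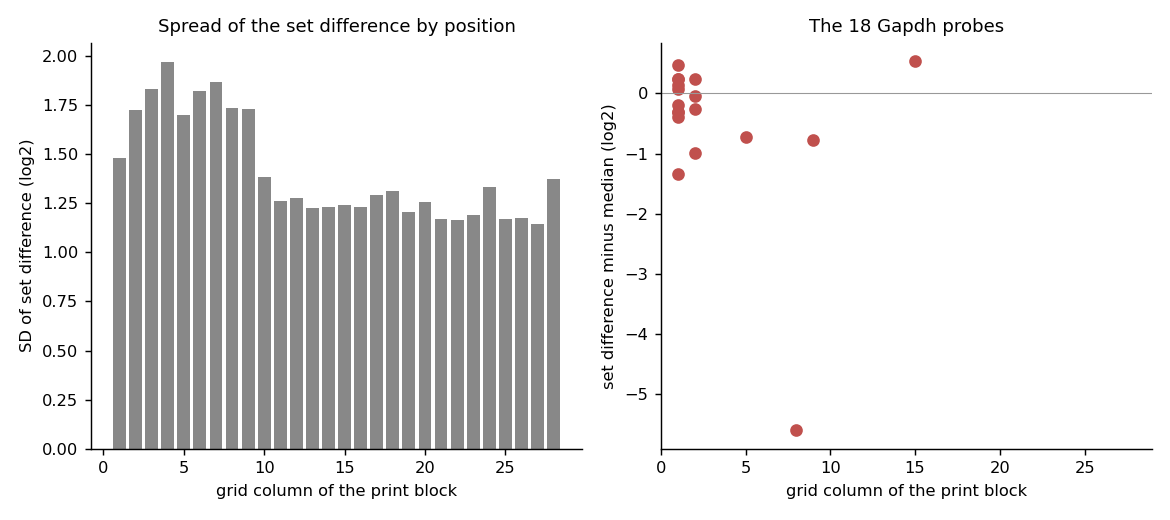
Left, SD of the recentred set difference over the probes of each grid column of the print blocks, from 1.14 in column 27 to 1.97 in column 4; right, the recentred set difference (log2) of the 18 Gapdh probes against grid column, of which 17 lie between -1.34 and 0.54 and 1, in column 8, at -5.60.

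The position of a probe on the array moved with the size of its difference. The probes lie in 48 print blocks of 25 rows and 28 columns, and the SD of the set difference was 1.78 in grid columns 1 to 9 and 1.25 in columns 10 to 28. In the pair-mean fit 21.4% of the probes of the first 9 columns were called, against 9.12% of the others. The difference between siRNA and null within a set had no such step, with SDs of 0.886 and 0.92 in replicates 1 and 2 and 1.16 and 1.23 in replicates 3 and 4. Of the 24 largest differences named above, 8 lay in columns 1 to 9 and 6 in column 28. They were the largest among 3195 called probes with separated sets, 1 symbol and no clone name. Of those 3195, 13.6% lie in columns 1 to 9 and 4.85% in column 28. Of all 9368 tested probes with 1 symbol and no clone name the shares are 10.8% and 6.0%. A shift of rows between the sets was not seen: the deposited row gave the best match of the sets in 1264 of 1286 block columns, with a median correlation of 0.873. Gja1 lies in column 2, Hba-a1 in column 5, Me1 and Hspb1 in column 6 and Insig1 in column 8. Spi1 and Kif20a lie in column 28, and Laptm5, Trem2, Ogn, Id4 and Bmp6 in columns 12 to 24. With columns 10 to 28 alone, 4 of 17 microglia genes were called lower in the pair-mean fit, beside 2.81% of those probes (6.73% in either direction), and 2 fibroblast and 3 BMP and TGF-beta genes were called higher, beside 3.92%. The part of position in the differences was not tested further.

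Wild-type replicates gave a partly similar pattern. Wild-type replicates 3 and 4 were set against replicates 1 and 2, after the latter were moved by up to a few grid rows to the row they match in the other samples, which favours likeness. Over 12446 probes the wild-type difference correlated at 0.421 with the set difference, and 65.7% had the same sign after recentring. Of 19 microglia and macrophage genes with wild-type values 17 were lower in replicates 3 and 4, with a median of -1.19 (Laptm5 -1.27, Trem2 -1.71, Spi1 -1.38, Lcp1 -3.50). Of 12 fibroblast and mural genes 10 were higher, with a median of 0.92. Of 25 interferon genes 21 were lower, with a median of -1.42, as in null. Over all 6892 genes with wild-type values 3517 were lower and 3375 higher, with a median of -0.02. Hba-a1 gave -3.95, and Id4 went the other way (-0.77). No test was made on these 4 samples.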

How the data were processed

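RNA labelled with Cy3 or Cy5 was hybridised to spotted mouse oligonucleotide arrays, per the labels' protocols. The deposited table holds log2 values that the authors centred on 0 per sample; the log base was read from the values, and for the scanner, background correction and normalization, nothing is recorded in the sources used here. Missing values carry no reason, and signal over background is unknown, so the number of samples limits the precision.

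Samples were grouped by their titles. Probes measured in all 8 samples were fitted with limma 3.58.1 in R 4.3.3 (terms for set, null or siRNA, and dye; consecutive samples as a random block, consensus correlation 0.504), with two-sided p-values adjusted by Benjamini-Hochberg over 14728 probes and called under 0.05. Averaging the pairs is the stricter fit, and p-values of the block fit may be too small. The interaction term treated samples as independent, so its p-values are too small if the pairs are technical. Only the fits of the set over both groups, with and without the pair block and with pair means, were run on simulated data. The outcome is not reported here, and the interaction term and the fits of 1 group were not run that way. Each list gene was represented by its brightest probe, 584 distinct genes in 30 lists, of which some share members. Genes named are Gja1, the 12 largest called differences each way with separated sets, leaving out clone names, up to 3 called members per list and a fixed row; other names were picked after their values were seen. The members and lists were chosen with earlier results of these data known. Probe symbols came from the array's annotation. Same-numbered null and siRNA samples deviated together from their group means (r 0.564 to 0.646), which contains the set difference itself, and from their group and set means at 0.407 and 0.516, where they share a dye; no label says that a number marks a shared culture or day.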

Additional observations from a re-analysis of the deposited data

Results flagged for a closer look

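The difference between the sets differed between siRNA and null (limma interaction test, samples treated as independent, adjusted p under 0.05) for 19 of the 70 probes of genes described with values. Over all 14728 probes the share called was 21.2%. Several of the genes described were picked after their values were seen, so the count of 19 says nothing about genes in general. The siRNA difference minus the null difference was positive for Saa3 (7.34), Psmb8 (4.70), Lcp1 (4.66), Irf7 (4.30), Ly86 (3.95), Igtp (3.23), Aqp4 (2.07 at 1 probe), Ccl5 (1.96), Aldoc (1.85), Bmpr1a (1.79), Tgfb1 (1.77), Ccnb2 (1.63) and Fcrls (1.45). It was negative for Col1a1 (-4.29), Lox (-2.81), Id1 (-2.29), Aqp2 (-1.83), Ppard (-1.61) and Id3 (-1.49).

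One sample stood far from the other 3 of its set. Hspb1 read 2.22 in siRNA replicate 4, beside 1.12 to 1.28 in the other samples of replicates 3 and 4. Chance gives such a gap in about 5% of groups, and 280 groups of 4 were checked.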

How the results depend on the processing

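The count of 5427 called probes became 9893 with the replicate number as a random replicate block, 8428 with array weights, 1777 with recentred pair means (4516 recentred alone), and, in subsets that test fewer probes and are also recentred, 1680 in grid columns 1 to 9, 2780 in columns 10 to 28 and 754 in columns 10 to 28 with pair means. The sets share no replicate number, so a fixed replicate block cannot be fitted beside the set, and the random one changed the count by over 1.5 times. Without 1 replicate it was 4329 to 5911. Probes higher in replicates 3 and 4 (4842) numbered 8105 with the replicate block, 2319 after quantile normalization, 2148 recentred, 1036 with recentred pair means, and, recentred as well, 736 and 1303 in the 2 column ranges, 439 in the later range with pair means and 2049 over block columns correlating at 0.6 or more; it was 3789 to 5383 without 1 replicate. Probes lower (585) numbered 1079 with no pair block, 327 with pair means, 1788 with the replicate block, 2308 by quantiles, 1546 with array weights, 2368 recentred, 944, 1477, 315 and 2215 in those recentred subsets, and 470 to 645 without 1 replicate. The split between higher and lower thus depends on the centring.

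The interaction count of 3124 was 3439 recentred and 272 to 5929 without 1 replicate. Over all lists 190 called genes became 123 with pair means, 371 with the replicate block, 313 with array weights, 49 with recentred pair means and 31 with these in columns 10 to 28 (146 to 202 without 1 replicate). Microglia genes called lower (7) were 3 with pair means, 13 with the replicate block, 12 by quantiles, 11 recentred, 6 with recentred pair means and 4 with these in columns 10 to 28 (4 to 10 without 1 replicate). All probes called lower (585 of 14728) were 327, 1788, 2308, 2368 and 741 in those settings, and 315 of 11196 in columns 10 to 28. Fibroblast genes called higher (12) were 7 with pair means, 4 by quantiles, 7 above a mean of 0, 4 recentred, 2 with recentred pair means and 2 with these in columns 10 to 28 (8 to 11). All probes called higher (4842 of 14728) were 3365, 2319, 3609 of 9962, 2148, 1036 and 439 of 11196 in those settings. The wild-type correlation of 0.421 was 0.281 with the rows as deposited. Fitted alone with samples as independent, null had 7420 called probes and siRNA 9266. Each set of a group is then 1 consecutive pair, so these p-values rest on the spread within pairs, which may be technical. The causes were not tested.

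Of 103 named probes, 98 were called, 55 of these also with recentred pair means, and 8 lost the call without 1 replicate. Over all 14728 probes 12.1% were called with recentred pair means. Most of the named probes were chosen because they were called with large differences, so these counts follow from that choice and support nothing. The sign turned only for uncalled ones: Aqp4 (-0.52 by quantiles, -0.46 recentred, -0.46 with recentred pair means, -0.40 in columns 10 to 28 recentred, also with pair means, and -0.45 over correlating columns recentred), Tubb3 (-0.37, -0.40, -0.40, -0.34, -0.34 and -0.39), Mki67 (-0.38, -0.38, -0.38, -0.32, -0.32 and -0.38) and Col1a1 (-0.30 with array weights).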
